A study of Mus musculus with 4 samples.

Results

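The genes described here are 9 genes of neuronal commitment and neuroblast migration, *Neurog1*, *Neurog2*, *Neurod1*, *Eomes*, *Tbr1*, *Dlx1*, *Dlx2*, *Dlx5* and *Dcx*, measured in neural stem/progenitor cells (NSPCs) with and without the PARP inhibitor PJ34. They were chosen by name, and all 15 probes that carry these names on the array were taken, so that they are 9 of 35019 named genes or transcripts and 15 of 55681 probes. Most of them were at or near the background: 4 probes of 3 genes (*Neurod1*, *Dlx2* and *Dcx*) passed the filter for ratios, and *Dlx2* and *Dcx* alone were detected in untreated cells. None of the 3 was called changed (*p* and *q* below 0.05 and more than 2-fold) after PJ34 in wild-type or in *Trp53*-/- NSPCs, where 0.503% and 0.371% of all genes were. At an unadjusted *p* below 0.05 it was *Neurod1* in wild-type cells, a gene that entered the test through its PJ34 channel alone, beside 32% of all genes, no member in *Trp53*-/- cells, beside 31%, no member in the difference between genotypes, beside 14.5%, and *Dcx* in the untreated comparison, beside 24.9%.

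NSPCs were taken from the brains of mouse embryos at embryonic day 13.5 and grown as floating neurospheres with B-27, EGF and FGF. The labels give the strain as Slc:ICR for both genotypes, and the mutant *Trp53* allele came from mice obtained as heterozygotes. On each of 4 Agilent arrays, RNA of cells treated with 20 µM PJ34 was labelled with Cy5 and RNA of untreated control cells of the same genotype with Cy3, on 2 arrays per genotype from independently prepared RNA. The dyes were not swapped, so a dye bias of a probe and the effect of PJ34 cannot be told apart within a genotype. The question put to these genes was whether PJ34 changed their transcripts, whether the change differed without p53, and whether the untreated genotypes differed.

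The proneural factors *Neurog1* and *Neurog2* are basic helix-loop-helix transcription factors that commit a dividing progenitor to the neuronal fate, mainly in the dorsal telencephalon, and *Neurod1* acts after them in the newborn neuron. *Eomes* marks the intermediate progenitors of the cortex and *Tbr1* the early glutamatergic neurons that follow. The homeobox genes *Dlx1*, *Dlx2* and *Dlx5* act in the ventral telencephalon, where GABAergic interneurons arise. *Dcx* encodes doublecortin, a microtubule-binding protein of migrating neuroblasts and immature neurons, whose gene is on the X chromosome.

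The labels were first checked on each array. The normalized log2 level of *Trp53* in the control channel was 8.28 and 8.51 on the wild-type arrays and 7.56 and 7.82 on the *Trp53*-/- arrays, above background on all of them, and whether its probe lies in the deleted part is not given in the sources used here. The log2 ratio of *Cdkn1a*, a direct target of p53, was 1.84 and 1.23 in wild-type and -0.48 and -0.74 in *Trp53*-/- cells. All 8 neural stem and progenitor markers examined (*Fabp7*, *Msi1*, *Nes*, *Pax6*, *Prom1*, *Slc1a3*, *Sox2* and *Vim*) were above background in both channels of all 4 arrays, whereas 4 of 6 microglial markers (*Aif1*, *Cx3cr1*, *Ptprc* and *Tyrobp*), 3 of 4 endothelial markers (*Cdh5*, *Cldn5* and *Pecam1*) and 4 of 4 fibroblast markers were above background in no control channel. The microglial *Csf1r* and *Itgam* and the endothelial *Kdr* were above background in the control channel of all 4 arrays. Markers of other neural types were also above background in both channels of all 4 arrays. They were 7 of 7 oligodendrocyte lineage, 5 of 6 mature neuron and 4 of 5 astrocyte markers. The array *Trp53*-/- replicate 2 stood apart: the log2 ratio of the Y-linked *Eif2s3y* was 4.22 and that of *Xist* was -3.08, so its treated and control cells differed in more than PJ34. Results for *Trp53*-/- cells are therefore also given without it. Wherever 1 array is left out, its genotype is read from a single array that is assumed to vary like the 2 arrays of the other genotype, so a call gained or lost in this way rests on that assumption. Between 38.6% and 44.1% of the probes were well above background in the control channel of an array, and between 46.8% and 48.8% in the PJ34 channel.

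Detection of the 9 genes was poor in untreated cells. Each of the 15 probes was read in 2 channels on 4 arrays, and 26 of these 120 readings were well above background by the scanner software. In the control channel it was 8 of 60 readings, all of them from 1 probe of *Dlx2* and 1 probe of *Dcx*. In the PJ34 channel it was 18 of 60. For *Neurog2*, *Eomes*, *Tbr1* and *Dlx1* no probe was well above background in any channel. Of the 15 member probes 7 were above background in no channel, close to the 45% of all probes on the array. In the control channel of all 4 arrays 35.4% of all probes were above background, and of the member probes only those of *Dlx2* and *Dcx* just given.

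Detection was also read against the negative control spots. Of the 60 control readings 32 exceeded the 95th percentile of the 308 negative control spots of the same channel and array, and of the 60 PJ34 readings 50 did. The share of all probes over that percentile is not given here, so these counts do not place the members against the rest of the array. For the 9 probes of the 6 genes other than *Neurod1*, *Dlx2* and *Dcx*, the control signal was between 0.667 and 1.26 times that percentile and the PJ34 signal between 0.804 and 1.37 times. The *Dcx* probe that was detected everywhere stood at 2.18 to 4.23 times in the control channel, and the *Dlx2* probe at 1.44 to 1.95 times. Because the background was read separately at each colour, and more probes of the whole array passed in the PJ34 channel than in the control channel, a member seen only in the PJ34 channel is not by itself a member that rose.

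**Figure D1:**
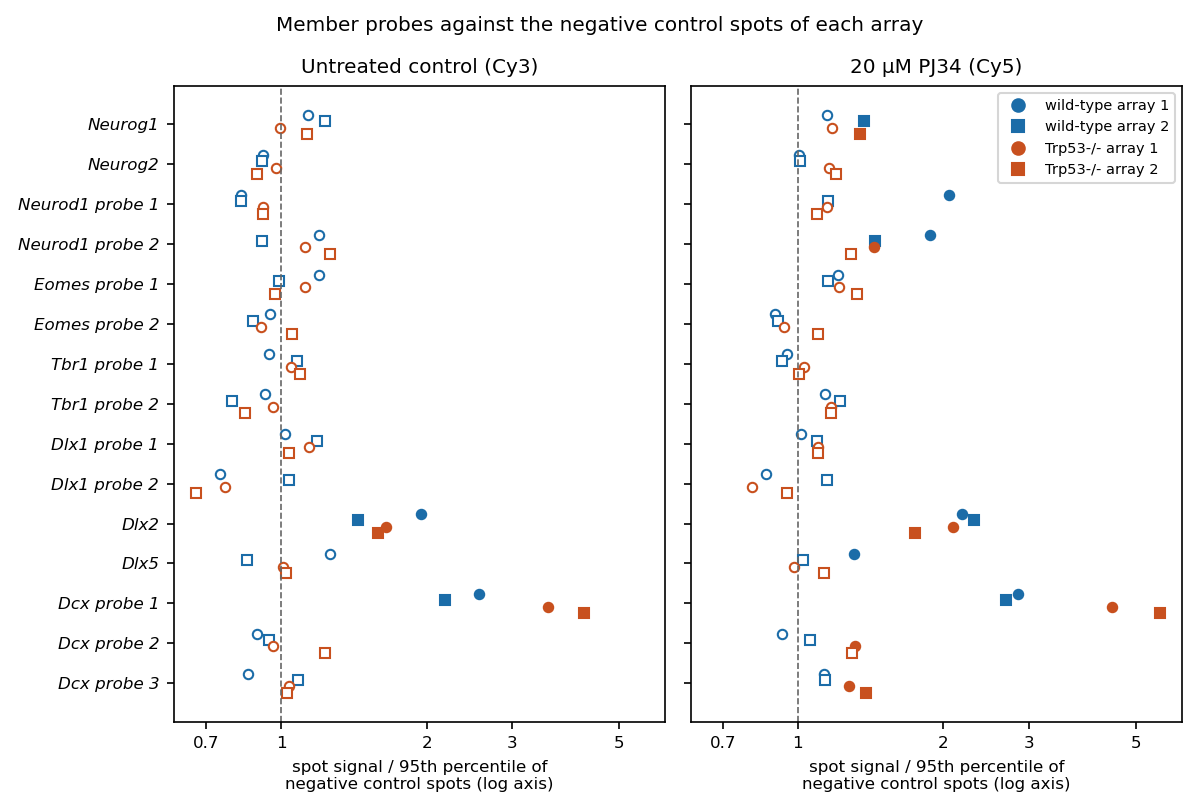
Signal of each of the 15 probes divided by the 95th percentile of the 308 negative control spots of the same channel and array (log axis), for the untreated control channel (left) and the PJ34 channel (right). Each point is 1 array, and filled points were well above background by the scanner software: 8 of 60 points in the control panel and 18 of 60 in the PJ34 panel are filled, and only *Dlx2* and *Dcx* probe 1 are filled throughout.

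The 6 probes of the genes on which the results turn are given by their first 30 of 60 bases, 5′ to 3′ as in the array design, with their positions on the mouse genome build mm9. They are shown because probes of the same gene differed in how often they were above background.
Neurod1, probe A_52_P408391, chr2:79293621-79293680, minus strand: tttgttgtgattttgtacagaatttttaat
Neurod1, probe A_55_P2004972, chr2:79294309-79294368, minus strand: cgctcagcatcaatggcaacttctctttca
Dlx2, probe A_51_P480202, chr2:71381553-71381612, minus strand: gatttgaatttgtttttatcttgtcctaaa
Dcx, probe A_52_P244349, chrX:140290854-140290913, minus strand: ataaaaagaaaagcaaaacagagatgtgcg
Dcx, probe A_52_P506493, chrX:140295893-140295952, minus strand: tcccatgttgtcccaagtattcatttaaga
Dcx, probe A_55_P2080126, chrX:140296337-140296396, minus strand: aactcaacatgaattgatgacaacttggtg
The *Neurod1* probes start 688 bases apart and have a GC content of 23.3% and 45%. The first *Dcx* probe starts 5039 bases from the second, and the second 444 bases from the third, with GC contents of 43.3%, 40% and 45%. An annotation of mm9 was not used here, so the exon in which a probe lies is not stated.

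*Neurod1* was the member with the largest ratio in wild-type cells. At probe A_55_P2004972 the log2 ratio of PJ34 over control was 0.42 and 0.34 on the wild-type arrays. It was 0.20 and -0.04 on the *Trp53*-/- arrays, so both wild-type values lay above both *Trp53*-/- values. Of all 19673 genes tested, 45.1% had ratios that did not overlap between the genotypes. The control signal was above background on no array, so the size of the ratio is not known. Against the lowest control signal well above background, the mean of the wild-type arrays gave a bound of 1.12-fold. That bound came from replicate 1 alone. On replicate 2 the PJ34 level of 6.47 lay below the lowest control signal well above background, 6.55, so no increase is bounded there. The fitted wild-type mean was 0.38 in limma (Storey's *q* = 0.0109), short of 2-fold. Because the probe passed the filter only through the PJ34 channel of the wild-type arrays, in which it is the brighter, this *q* is no support for a rise. For the same reason the order of the genotypes is no support for a difference between them. In *Trp53*-/- cells the mean was 0.08 (*q* = 0.294), and 0.20 without replicate 2 (*q* = 0.333). The log2 difference between the genotypes, over the same undetected control signals, was 0.30 (*q* = 0.253), where 1.8% of all genes passed at *q* below 0.05.

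The *Neurod1* signal was above background in the PJ34 channel alone. The raw control intensities were 51.3 and 37.0 in wild-type and 45.2 and 59.7 in *Trp53*-/- cells, none well above background, against PJ34 intensities of 111 and 87.3 and of 97.0 and 84.3, of which all but the last were. Of all probes, 2.79% were above background in the PJ34 channel of both wild-type arrays and in the control channel of neither, and 0.0108% showed the opposite. The size of the ratio depended on how the background was treated. It was 0.51 without background correction, 0.67 with an offset of 16 in place of 50, and 1.48 with the scanner software's own ratios, which are not held back by an offset (*q* = 0.0744). Without wild-type replicate 1 it was 0.34 (*q* = 0.0877).

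The other *Neurod1* probe, A_52_P408391, read 0.99 and 0.24 on the wild-type arrays and 0.13 and 0.05 on the *Trp53*-/- arrays. All 4 values were above 0, but the first, the only reading of this probe above background, lay well apart from the rest. The probe did not pass the filter and was not tested.

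*Dlx2*, a regulator of ventral interneuron production, was detected in every channel at a low level. Its log2 ratio was 0.07 and 0.24 in wild-type and 0.20 and -0.04 in *Trp53*-/- cells, so that the genotypes overlapped. The wild-type mean was 0.16 (interval -0.06 to 0.37, *q* = 0.155), an interval of 0.959- to 1.30-fold. In *Trp53*-/- cells it was 0.08 (interval -0.14 to 0.30, *q* = 0.297), or 0.20 without replicate 2 (*q* = 0.342), and the difference between genotypes, for which 0.483% of all genes were called, was 0.08 (interval -0.23 to 0.38, *q* = 0.629).

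*Dcx* had the brightest probe of its own 3 and its ratio stayed near 0 on every array. The log2 ratio of A_52_P244349 was 0.09 and -0.17 in wild-type and 0.03 and -0.04 in *Trp53*-/- cells, with each genotype on both sides of 0. The wild-type mean was -0.04 (interval -0.26 to 0.17, *q* = 0.412), that in *Trp53*-/- cells was -0.004 (interval -0.22 to 0.21, *q* = 0.478), and without *Trp53*-/- replicate 2 it was 0.03 (*q* = 0.639). The intervals correspond to 0.837- to 1.13-fold and 0.859- to 1.16-fold. The difference between genotypes was -0.04 (interval -0.34 to 0.27, *q* = 0.686).

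The other 2 *Dcx* probes were dimmer. A_55_P2080126 was above background in the PJ34 channel of both *Trp53*-/- arrays alone, and its log2 ratio was 0.27 and -0.17 in wild-type and 0.10 and 0.14 in *Trp53*-/- cells. Its mean in *Trp53*-/- cells was 0.12 (*q* = 0.251 in the fit of all probes), with no bound above 1-fold. A_52_P506493 was above background once, in the PJ34 channel of *Trp53*-/- replicate 1, where its ratio was 0.26. A_52_P506493 did not pass the filter and was not tested, and neither of the tested probes passed a test of the PJ34 effect.

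The 6 members that did not pass the filter are given as readings with no test. Over their 9 probes the log2 ratio ranged from -0.28 to 0.36. *Neurog1* was above background in the PJ34 channel of wild-type replicate 2 and *Trp53*-/- replicate 2, where its ratios were -0.09 and -0.10, and its other ratios were -0.07 and 0.09. *Dlx5*, which follows *Dlx1* and *Dlx2* in the interneuron lineage, was above background in the PJ34 channel of wild-type replicate 1, with a ratio of 0.02. For 14 of the 15 member probes the ratio was within 0.5 of 0 on all 4 arrays, the exception being *Neurod1* probe A_52_P408391. Near the background the offset of 50 draws a ratio towards 0, so these values do not show that the genes were unaltered.

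**Figure D2:**
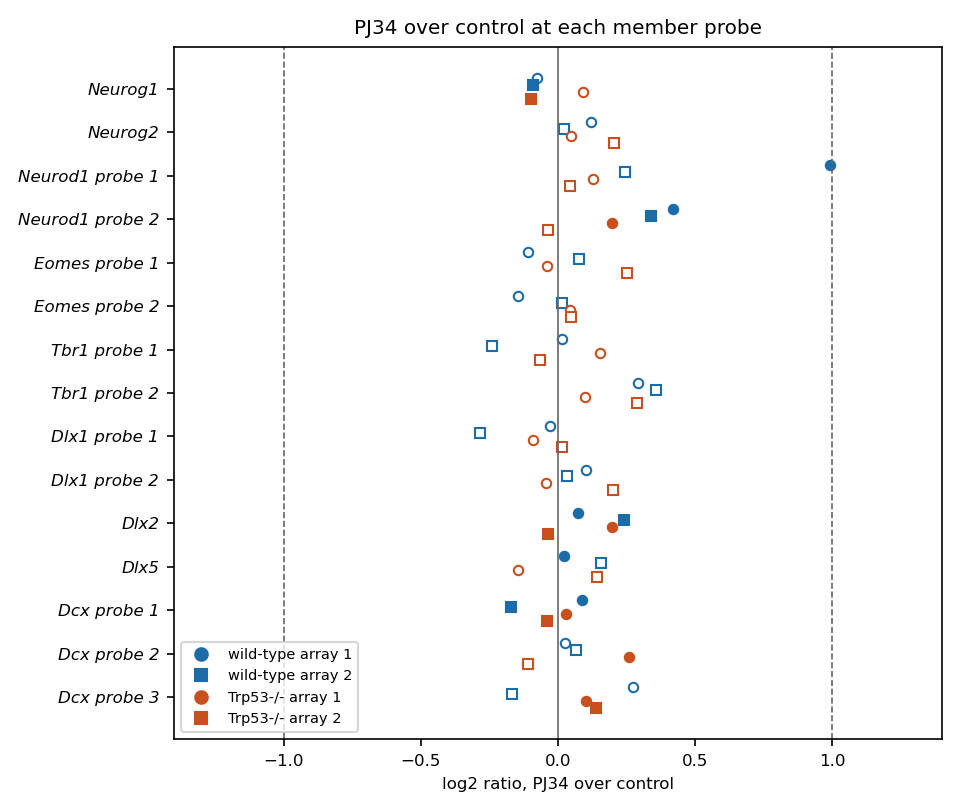
Log2 ratio of PJ34 over control at each of the 15 probes, 1 point per array, filled where either channel was well above background; the dashed lines mark a 2-fold change. The 15 probes lie between -0.28 and 0.42 apart from the single value of 0.99 at the first *Neurod1* probe on wild-type array 1.

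Untreated levels could be compared between the genotypes for *Dcx* and *Dlx2*. The normalized log2 level of *Dcx* at A_52_P244349 in the control channel was 7.16 and 7.34 on the wild-type arrays and 7.72 and 8.06 on the *Trp53*-/- arrays, so both *Trp53*-/- values were higher and the groups did not overlap. For all 16858 genes tested, 57.2% did not overlap, 28.7% with wild-type lower. The level difference, wild-type minus *Trp53*-/-, was -0.64 (SE 0.20, interval -1.13 to -0.15), that is 1.55-fold higher in *Trp53*-/- cells, with *q* = 0.0709, which did not pass the threshold. At *q* below 0.05 and more than 2-fold, 4.76% of all genes were called, and 9.34% at *q* below 0.05 alone. In the PJ34 channel the *Dcx* levels were 7.25 and 7.17 in wild-type and 7.75 and 8.02 in *Trp53*-/- cells, in the same order as in the control channel.

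The call on *Dcx* depended on single arrays. The level difference was -0.55 (*q* = 0.0169) without wild-type replicate 1 and -0.73 (*q* = 0.00342) without wild-type replicate 2, whereas it was -0.81 (*q* = 0.369) without *Trp53*-/- replicate 1 and -0.47 (*q* = 0.882) without *Trp53*-/- replicate 2. The calls over all genes moved with the same arrays, from 409 higher and 393 lower in wild-type cells to 18 and 39 without *Trp53*-/- replicate 2, and to 59 and 75 without *Trp53*-/- replicate 1. Other differences between the cultures lay in the same samples. The Y-linked *Eif2s3y* and *Ddx3y* were above background in the control channel of both wild-type arrays and of neither *Trp53*-/- array; in the PJ34 channel of *Trp53*-/- replicate 2, where the level of *Eif2s3y* was 10.5, that of *Dcx* was 8.02. Of 5 astrocyte markers 4 were lower in untreated wild-type cells at *q* below 0.05, with level differences of -2.38 for *Gfap*, which was above background on 1 of 2 wild-type arrays, and -1.89 for *S100b*. Of 7 oligodendrocyte lineage markers 2 were lower, among them *Mbp* with a difference of -1.98, and *Pdgfra* was higher by 0.71. Averaged over the whole list on the linear scale, the astrocyte markers had a control intensity of 306 and 632 in wild-type and 616 and 622 in *Trp53*-/- cells, and the oligodendrocyte lineage markers 6117 and 5809 against 7343 and 6351. Of 5 mature neuron markers tested, *Rbfox3*, *Syn1* and *Syt1* were lower and *Snap25* was higher in wild-type cells, with a list average of 1653 and 1272 against 1117 and 1164. The part of these differences in that of *Dcx* was not tested, and in such bulk samples fewer cells of a type and less RNA per cell cannot be told apart.

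The untreated level of *Dlx2* was 6.83 and 6.76 in wild-type and 6.70 and 6.71 in *Trp53*-/- cells. The values did not overlap, but they spanned little, and the difference of 0.09 (interval -0.32 to 0.50, *q* = 0.437) was not larger than the spread the model gives. The other 7 members had no probe above background in any control channel, so no untreated difference could be read for them.

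**Figure D3:**
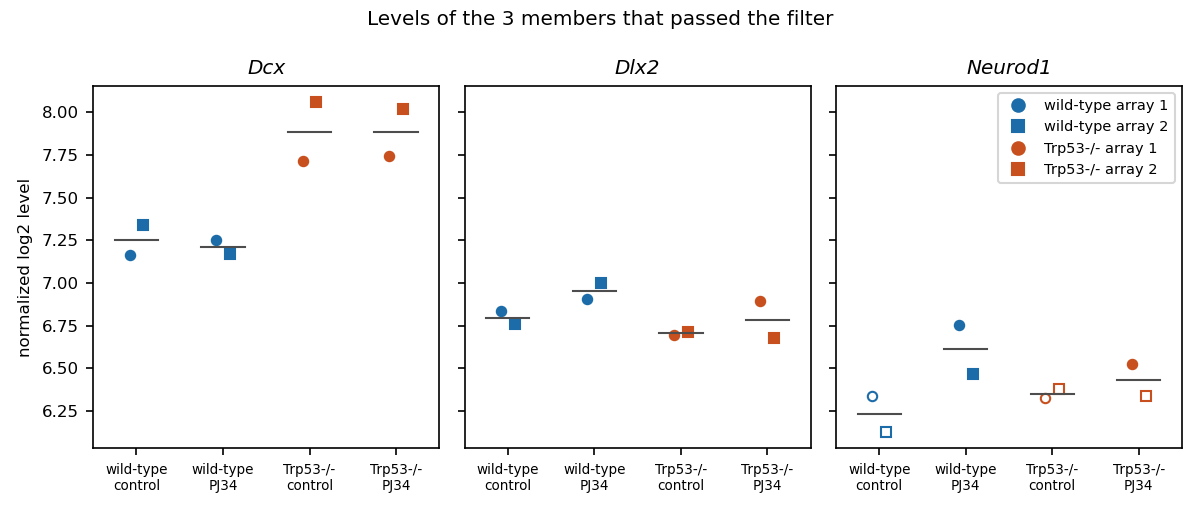
Normalized log2 level of *Dcx* (A_52_P244349), *Dlx2* (A_51_P480202) and *Neurod1* (A_55_P2004972) in the control and PJ34 channels of each genotype; points are arrays, bars are means of 2 arrays, and open points were not well above background. *Dcx* was near 7.2 in both wild-type channels and between 7.72 and 8.06 in both *Trp53*-/- channels, while all *Neurod1* control points are open; levels of different probes are not comparable.

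Across the 8 channels, the genes whose normalized log2 level followed that of *Dcx* most closely, of 19672 compared, included *Trim2* (Pearson's r = 0.989) and *Mavs* (r = 0.986). For *Dlx2* they included *Srp19* (r = 0.954) and *Ankrd16* (r = 0.949), and for *Neurod1*, whose control levels were all at background, *Dgkd* (r = 0.969), *Atp5g3* (r = 0.968) and *Ccnt2* (r = 0.951). The 8 channels come in pairs from the same array, and the values are a description of these channels only.

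The genes that act with the members were read from the same fits. Of 19 other proneural and neurogenic transcription factors, 12 passed the filter, and 7, among them *Atoh1*, *Neurod4* and *Neurod6*, were above background in no control channel. At *q* below 0.05, 2 were higher and 3 lower after PJ34 in wild-type cells, where 25.2% of all genes passed, and 3 were higher and 4 lower in *Trp53*-/- cells, where 23.4% of all genes passed, with a list median of 0.01 and -0.04 against 0.03 and 0.03 over all genes. None changed more than 2-fold. *Hes6*, which counters the Hes repressors, fell by 0.82 and 0.87 on the log2 scale in wild-type and *Trp53*-/- cells, and *Insm1*, a zinc finger factor of delaminating progenitors, rose by 0.63 and 0.70. Without *Trp53*-/- replicate 2, the list counted 1 higher and 1 lower in those cells, *Insm1* with 0.85 and *Hes6* with -1.05, the latter then past 2-fold. In untreated cells *Ebf3*, a factor of early neuronal differentiation, was the gene of the list past *q* below 0.05, beside 9.34% of all genes. Its levels were 7.91 and 7.42 in wild-type and 8.47 and 8.70 in *Trp53*-/- cells, a difference of -0.92 (*q* = 0.0454). It read -1.04 (*q* = 0.249) and -0.81 (*q* = 0.618) without *Trp53*-/- replicates 1 and 2.

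Direct targets of the proneural factors were all detected, unlike most of the factors themselves. Of 9 targets, 2 were higher and 4 lower in wild-type cells and 1 was higher and 4 lower in *Trp53*-/- cells at *q* below 0.05, beside 25.2% and 23.4% of all genes, with a median of -0.10 and -0.17. *Mfng*, a glycosyltransferase that modifies Notch receptors, was the only target past 2-fold: its log2 ratios were -1.45 and -1.68 in wild-type (mean -1.57, *q* = 6.74e-05) and -0.82 and -1.41 in *Trp53*-/- cells (mean -1.11, *q* = 0.000454). It was called lower in both genotypes, as 0.213% of all genes were in wild-type and 0.28% in *Trp53*-/- cells. The Notch ligands of the list also fell, *Dll3* by 0.70 and 0.54 and *Dll1* by 0.30 and 0.26 in wild-type and *Trp53*-/- cells. Without *Trp53*-/- replicate 2, 1 target was higher and 3 were lower in those cells, *Dll1* read -0.30 (*q* = 0.17) and *Mfng* read -0.82 (*q* = 0.00374), short of 2-fold. *Gadd45g* rose in wild-type cells, with ratios of 0.91 and 0.64 (*q* = 0.00088), and its mean was 0.26 in *Trp53*-/- cells (*q* = 0.0744). The difference between genotypes, 0.51, did not pass (*q* = 0.13).

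Among 12 partners and repressors of the proneural factors, 11 passed the filter, of which 2 were higher and 4 lower in wild-type and 4 higher and 2 lower in *Trp53*-/- cells at *q* below 0.05, beside the same 25.2% and 23.4%. *Hes5*, the Notch effector that represses proneural genes, was the only one past 2-fold. Its log2 ratios were -2.01 and -1.50 in wild-type cells (mean -1.76, *q* = 4.1e-05) and -0.85 and -0.44 in *Trp53*-/- cells (mean -0.65, *q* = 0.00551). The difference between genotypes, -1.11 (SE 0.19, *q* = 0.0169), was itself called, as 0.0407% of genes were in this direction. It did not pass without *Trp53*-/- replicate 2 (-0.91, *q* = 0.0516), with an offset of 16 (*q* = 0.101) or with the scanner software's ratios (*q* = 0.265), and the *Trp53*-/- mean alone did not pass without replicate 1 (-0.44, *q* = 0.0752). The Id proteins, which sequester the E-protein partners, did not move together: *Id2* rose by 0.61 and 0.49 while *Id3* fell by 0.53 and 0.58, although with median centring alone *Id3* read 0.14 and 0.36. Without *Trp53*-/- replicate 2, none of the 11 was higher and 2 were lower in those cells at *q* below 0.05, and *Id2* read 0.40 (*q* = 0.0948).

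Lineage genes on either side were detected only in part. Of 12 genes of the dorsal glutamatergic lineage 6 passed the filter, and none changed more than 2-fold. Past *q* below 0.05 were *Emx2* in wild-type cells (-0.25, *q* = 0.0451), beside 25.2% of all genes, and *Neurod2* in *Trp53*-/- cells (-0.30, *q* = 0.0245), beside 23.4%. Neither call was stable: *Emx2* read -0.15 (*q* = 0.366) without wild-type replicate 1 and -0.36 (*q* = 0.0612) without wild-type replicate 2, and *Neurod2* read -0.32 (*q* = 0.106) and -0.27 (*q* = 0.22) without *Trp53*-/- replicates 1 and 2. *Emx2* also lost its call without either *Trp53*-/- array (*q* = 0.0516 and 0.0517). Of 15 genes of the ventral GABAergic lineage 8 passed, and *Gad1*, *Gad2*, *Nkx2-1* and *Lhx8* were above background in no control channel. *Sp8*, a zinc finger factor of interneuron progenitors, was above background in both untreated wild-type samples, with levels of 9.20 and 8.70, and in neither untreated *Trp53*-/- sample, with readings of 6.22 and 6.68. Against the lowest signal well above background it was at least 5.17-fold higher in untreated wild-type cells (*q* = 0.00979 in the fit). Its log2 ratio after PJ34 was -0.90 and -0.50 in wild-type cells, a mean of -0.70 (*q* = 0.0156), which was -0.50 (*q* = 0.0589) without wild-type replicate 1. In *Trp53*-/- cells the readings were 0.18 and 1.21 over control signals at background. The fitted mean was 0.69 (*q* = 0.0176), and 0.18 without replicate 2. Against the lowest control signal well above background, the mean of the 2 arrays gave a bound of 1.48-fold. That bound came from replicate 2 alone, because the PJ34 level of replicate 1 lay below that lowest signal, 6.49 on its array. The fitted difference of -1.40 (*q* = 0.0298) was the only call of this list for the genotypes' responses, and it rests on those undetected control signals. It did not pass with an offset of 16 (-1.77, *q* = 0.121), median centring (-1.04, *q* = 0.105), the scanner software's ratios (-2.82, *q* = 0.265) or the mean of all kept probes (-0.79, *q* = 0.0571), and was -0.89 (*q* = 0.0448) without *Trp53*-/- replicate 2. *Ebf1*, a factor of striatal neurons, read 0.25 and 0.54 in *Trp53*-/- cells (mean 0.40, *q* = 0.0167), and 0.25 (*q* = 0.271) without replicate 2. *Gsx1*, a factor of ventral progenitors, was higher in untreated wild-type cells, with levels of 8.14 and 8.44 against 7.21 and 7.41 (difference 0.98, *q* = 0.0299), and read 0.88 (*q* = 0.323) and 1.08 (*q* = 0.378) without *Trp53*-/- replicates 1 and 2.

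The migrating neuroblast and immature neuron genes, among which *Dcx* would be counted, were detected far more often than the transcription factors: 17 of 20 were above background in the control channel of all 4 arrays. At *q* below 0.05, 7 were higher and 2 lower in wild-type cells, and 6 were higher and 1 lower in *Trp53*-/- cells, all of them below 2-fold, beside 25.2% of all genes in wild-type cells (13.7% upward) and 23.4% in *Trp53*-/- cells. The list median was 0.11 and 0.10. The *Dcx* relatives *Dclk1* and *Dclk2*, doublecortin-like kinases that also bind microtubules, rose by 0.47 each in wild-type and by 0.32 and 0.29 in *Trp53*-/- cells, whereas *Dcx* read -0.04 and -0.004. *Robo1*, a receptor for Slit guidance cues, rose by 0.54 and 0.31, and *Tubb3* read -0.10 (*q* = 0.334) and -0.18 (*q* = 0.188). *Robo2*, of the same receptor family, rose by 0.47 (*q* = 0.00486) in *Trp53*-/- cells and read 0.44 (*q* = 0.0718) without replicate 2. The neuronal RNA-binding proteins parted: *Elavl4* rose by 0.36 in both genotypes, with 0.17 (*q* = 0.30) in *Trp53*-/- cells without replicate 1, and *Elavl2* fell by 0.46 (*q* = 0.00316) in wild-type cells, a call lost with median centring (-0.054, *q* = 0.226). The other genes that fell, named after their values were seen, were the transcription factors *Sox11* in wild-type (-0.27, *q* = 0.0453) and *Sox4* in *Trp53*-/- cells (-0.25, *q* = 0.0376). Without wild-type replicate 1 *Robo1* read 0.34 (*q* = 0.0866) in wild-type cells. Without *Trp53*-/- replicate 2, 1 gene of the list was higher and none was lower in *Trp53*-/- cells at *q* below 0.05, *Dclk1* read 0.24 (*q* = 0.295), *Dclk2* 0.24 (*q* = 0.27) and *Robo1* 0.44 (*q* = 0.0899). *Dclk2* read 0.35 (*q* = 0.0845) there without replicate 1. In untreated cells 18 of these genes were tested; 11 were lower in wild-type, with a median difference of -0.42 against -0.01 for all genes. *Elavl3*, a neuronal RNA-binding protein, was called lower, with a level difference of -1.10 (*q* = 0.0281), *Dclk1* passed with -0.80 (*q* = 0.0341), and the rest did not. Over all genes, 4.76% were called in this comparison and 9.34% passed *q* below 0.05. Without *Trp53*-/- replicate 1 *Elavl3* read -1.17 (*q* = 0.183) and *Dclk1* -0.84 (*q* = 0.34), and without *Trp53*-/- replicate 2 they read -1.03 (*q* = 0.433) and -0.76 (*q* = 0.628).

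**Figure D4:**
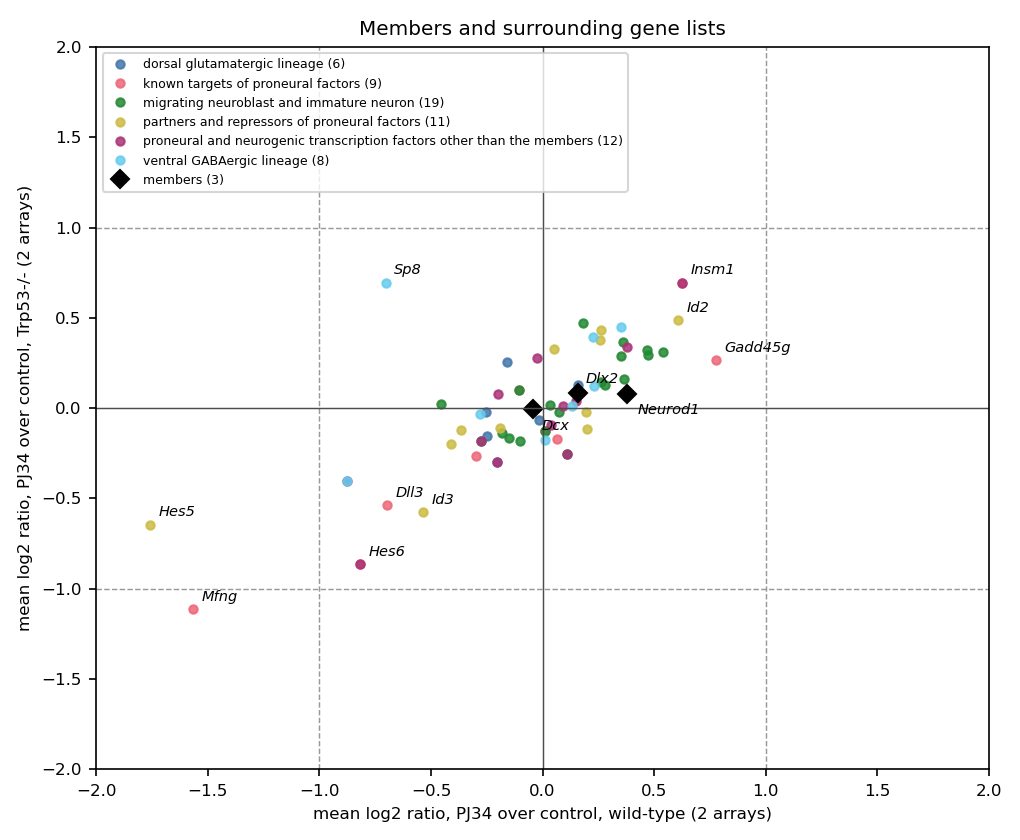
Mean log2 ratio of PJ34 over control in wild-type (horizontal axis) against *Trp53*-/- cells (vertical axis), each over 2 arrays, for the genes of 6 lists that passed the filter and for the 3 members that did; a gene of 2 lists is drawn for each, and dashed lines mark 2-fold. The members lie close to the origin (*Neurod1* at 0.38 and 0.08), and *Hes5* and *Mfng* lie past -1 in wild-type cells. *Sp8* lies below 0 in wild-type and above 0 in *Trp53*-/- cells, the latter over control signals at background. With median centring alone the median of all genes shifts upwards, and *Hes5*, *Hes6* and *Id3* pass above 0 in *Trp53*-/- cells. *Neurod1* does not shift upwards on that scale.

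The direction of the small ratios rests on the loess curve. When each array was instead only centred on its median probe, the median of all tested genes moved to 0.46 in wild-type and 0.64 in *Trp53*-/- cells. On that scale *Neurod1* read 0.37 and 0.04, *Dlx2* 0.36 and 0.24, and *Dcx* 0.25 and 0.54, all of them below the median of all genes. The list genes *Emx2* and *Id3* in wild-type and *Hes5*, *Hes6* and *Id3* in *Trp53*-/- cells changed sign on that scale, each of them also below the median.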

How the data were processed

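RNA of PJ34-treated (Cy5) and untreated (Cy3) NSPCs was compared on 4 two-colour arrays, and groups were taken from the sample titles. Spots were read by the authors with Feature Extraction 10.7.3.1. The deposited intensity values used here are the mean signal of each spot and the median of its local background in both colours. The deposited log10 ratios, in which the software has subtracted background and normalized the dyes, and the deposited processed signal served as alternatives, after conversion to log2. Another deposited table, of normalized values in 4 columns, was left aside, because no column name points to an array. Probe positions are on mm9 per the file headers. Gene names were updated through RefSeq accessions (GRCm38.p6) for 27235 of 55681 probes (48.9%), and 5363 probes are named differently on the first array, which used an older design file; 1 of the *Dlx1* probes has a transcript identifier there.

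Background was corrected by normexp with an offset of 50 (limma 3.58.1, R 4.3.3), loess was applied to the ratios of an array, and levels were normalized by quantiles of the mean intensity between arrays. Control and outlier spots (228 to 276 per array) were left out. A probe was kept for ratios if either channel, and for levels if the control channel, was well above background on the 2 arrays of a genotype, leaving 27035 and 22415 probes. A gene was read from its brightest kept probe, giving 19673 and 16858 genes. Limma's moderated linear model with a mean per genotype had 10.2 and 6.21 residual degrees of freedom for ratios and levels. Calls follow the study's methods: *p* and Storey's *q* below 0.05 with a change of more than 2-fold, where *q* is adjusted over all genes. Where a channel was below background on every array of a genotype, a fold is a bound on the mean of the 2 arrays. It is set against the lowest signal well above background and is open to dye bias, and a single array can lie below it. Array number limits the precision, and each array had a slide and scan of its own, so these could not be used as a block.

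All 9 members were named with every probe. Of the 6 surrounding lists, genes called in any comparison and those of smallest *p* were named, except some that count in their lists and are not reported here. Likeness was Pearson's r of normalized log2 levels over 8 channels. The members and lists were chosen with earlier results of these data known. On simulated data with 200 changed genes of 19673, 100 of 100 genes changed by 1.5 on the log2 scale and 100 of 100 changed by 2 were recovered in the wild-type comparison. For untreated levels, of 16858 genes, it was 56 and 83 of 100. The changes were added to simulated normalized values, without background or offset, so these shares do not cover genes near the background, as most members were. Alternatives were no background correction, an offset of 16, the scanner software's values, median centring, quantile normalization of the control channels alone, no filter, a strict filter, an intensity trend, Benjamini-Hochberg adjustment, the mean of all kept probes, a replicate block, a crossed block and leaving out each array.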

Additional observations from a re-analysis of the deposited data

Results flagged for a closer look

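The response of *Hes5* to PJ34 differed between genotypes by the test of the difference, with a log2 difference, wild-type minus *Trp53*-/-, of -1.11 (*q* = 0.0169), and its ratio was below 0 on 4 of 4 arrays. It did not pass without *Trp53*-/- replicate 2 (-0.91, *q* = 0.0516), with an offset of 16 (*q* = 0.101) or with the scanner software's ratios (*q* = 0.265). The response of *Sp8* differed by -1.40 (*q* = 0.0298), with both wild-type arrays below 0 and both *Trp53*-/- arrays above 0, the latter over control signals that were not well above background. It did not pass with an offset of 16 (*q* = 0.121), median centring (*q* = 0.105), the scanner software's ratios (*q* = 0.265) or the mean of all kept probes (*q* = 0.0571). The *Sp8* ratio of 1.21 came from *Trp53*-/- replicate 2, the array whose channels also differ in Y-linked genes, and the part of that difference was not tested. Neither gene is one of the 9 members, and no member was picked out by these tests.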

How the results depend on the processing

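Of the 9 members, *Neurod1*, *Dlx2* and *Dcx* were tested for ratios and the last 2 for untreated levels, and none of them was called in any alternative that gave a value, nor was any of the 9 with no filter, with a range of 0 to 0 over the arrays left out. The scanner software's log ratios and median centring gave no untreated levels, and quantile normalization of the control channels and the processed signal gave levels only. Of 622 recomputed values of single genes, 541 kept their direction and their side of *q* = 0.05, 61 no longer passed, 3 newly passed and 17 changed sign. The newly passing ones were *Dlx2* in wild-type cells with median centring (*q* = 0.0265) and the untreated *Dcx* level without either wild-type array. A value that changed sign is not counted among them, whatever its *q*.

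The counts over all genes, against 57 higher and 42 lower in wild-type cells, 18 and 55 in *Trp53*-/- cells, 87 and 8 for the difference between genotypes and 409 and 393 for the untreated level, moved as follows. With an offset of 16, 102 were higher in wild-type cells, 44 higher and 85 lower in *Trp53*-/- cells, 39 higher and 2 lower in the difference, and 642 higher in the level. With the scanner software's log ratios it was 380 higher and 178 lower in wild-type cells, 384 and 144 in *Trp53*-/- cells, and 0 and 0 in the difference. With median centring it was 1161 and 2, 3371 and 4, and 31 lower in the difference. The scanner software's processed signal gave 1178 higher and 672 lower levels, no filter 253 higher, Benjamini-Hochberg adjustment 257 higher, a strict filter 11 higher in *Trp53*-/- cells (*Neurod1* was not tested there), and the mean of all kept probes 4 lower in the difference. The cause of these shifts was not tested.

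Values that changed sign were, with median centring, *Dcx* (0.25), *Emx2* (0.12) and *Id3* (0.14) in wild-type cells and *Dcx* (0.54), *Hes6* (0.030), *Id3* (0.36) and *Hes5* (0.24) in *Trp53*-/- cells. With that value of 0.54, *Dcx* in *Trp53*-/- cells also passed *q* below 0.05 (*q* = 0.00214), short of 2-fold and below the median of all genes on that scale. *Dcx* read 0.00485 and 0.0585 with the mean of all kept probes, and *Dlx2* -0.0215 in *Trp53*-/- cells without background correction.

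Leaving out 1 array, which leaves a genotype with a single array assumed to vary like the other genotype's, gave 52 to 99 higher and 42 to 58 lower in wild-type cells (99 without wild-type replicate 2), 14 to 59 and 58 to 104 in *Trp53*-/- cells, 92 to 127 and 2 to 32 in the difference, and 18 to 793 and 39 to 696 in the level. The lowest level counts came without *Trp53*-/- replicate 2 and the highest without wild-type replicate 2. *Dcx* ran from -0.17 to 0.0888 in wild-type cells, from -0.0383 to 0.0299 in *Trp53*-/- cells and from -0.17 to 0.093 in the difference. In *Trp53*-/- cells *Neurod1* ran from -0.0377 to 0.20 and *Dlx2* from -0.0351 to 0.20, and *Dlx2* from -0.0395 to 0.19 in the difference.

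The labels number the arrays 1 and 2 in both genotypes, and the deviations of same-numbered arrays correlated by -0.179 for ratios and 0.0819 for levels. Whether same-numbered arrays share more than a number is not given by the labels, and these correlations cannot decide it. With a replicate block, 57 were higher and 42 lower in wild-type cells, 18 and 58 in *Trp53*-/- cells, 95 and 12 in the difference and 553 and 441 in the level. *Neurod1* in wild-type cells stayed at 0.38 (*q* = 0.00937), and among the named genes *Emx2* in wild-type cells lost its call (*q* = 0.0681). A crossed replicate block, chosen after seeing the data, gave 57 and 42, 18 and 58, 95 and 10, and 545 and 438. Signal over background limited what could be tested: 6 of the 9 members had no test of a ratio and 7 none of an untreated level.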
